A study of Ambystoma mexicanum with 2 samples.

Results

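Among the small RNA sequences of axolotl tail that could not be mapped to mirBase, a database of microRNAs of many species, 267 families had reads in the regenerating blastema only. They were chosen from the 7785 families that the deposited table names with the prefix pn, as the families with no listed partial homology to a mirBase entry, 0 reads in the control library and at least 40 reads in the blastema library. The choice therefore rests on the counts themselves, and the difference in abundance between the libraries is described here without a test. The libraries were made from total RNA of tail tissue pooled from 20 mature axolotls (Ambystoma mexicanum) of laboratory colonies, and the labels name no genetic change and do not say whether the 20 animals are per library. The control library came from uninjured tails that had never regenerated. The blastema library came from tails at 3 days post injury. With 1 library per condition there was no replicate error, and animals, tissue preparation and sequencing run cannot be told apart from the injury.

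MicroRNAs are short RNAs that Drosha and Dicer cut from hairpin precursors and that guide Argonaute proteins to messenger RNAs, mostly through the seed, bases 2 to 8 from the 5′ end. Because the cut that sets the seed is precise, copies of a microRNA usually differ more at the 3′ end than at the 5′ end, and many microRNAs begin with U, written T in sequenced libraries. After a tail is lost, the axolotl regrows it from the blastema, a growing tissue at the stump. To sequence small RNAs, an adapter oligonucleotide is joined to each end of the RNA, and a read normally starts at the base after the 5′ adapter, so that adapter bases are not part of the RNA.

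The deposited counts summed to 12613931 reads for the control library and 9952885 for the blastema library, of which unmapped sequences held 1183218 and 2050950. The share of all reads in entries for the muscle microRNAs miR-206, miR-133, miR-1, miR-499 and miR-208 was 67.4% for the control library and 14.3% for the blastema library. This gap goes with the same contrast as the values below, and its part in them was not tested. In pooled tissue, fewer cells of a type and less RNA per cell cannot be told apart. All 1233 sequences of the 267 families had even read counts. The intervals given were computed from these undivided counts, and they are too narrow if reads were counted more than once. Both library totals were odd, so not every deposited count was even. If only unmapped reads were counted more than once, their shares of the library, in RPM or percent, are also too high. Which reads this concerns was not tested. The intervals take in no more than counting error, because copies made by PCR are not separate molecules.

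The blastema-only families with the most reads among those marked for adapter letters are shown here. Families with bases of the 5′ adapter of the Illumina small RNA kit were marked. The mark was the exact presence of 9 letters from the 3′ end of that adapter, CCGACGATC, which is textbook knowledge of the kit. The most abundant unmapped sequence holding these letters, the most common sequence of Amex-miR-pn536, served as the adapter stretch. This sequence is no member, as it had 12 control reads and 79906 blastema reads. Capitals mark the 9 letters, and sequences are written 5′ to 3′.
adapter stretch: agttctacagtCCGACGATC
pn5883: aagttctacagtCCGACGATCa
pn6071: agttatacagtCCGACGATC
pn6506: cgttctccattCCGACGATC
pn6037: agttctacagtCCGACGATCa
pn7047: cgtactacagcCCGACGATC
pn5878: caagttctacagtCCGACGATC
pn6498: agttctacagtCCGACGATCaa
pn7468: gcgttctacagtCCGACGATC
pn6467: cgtgctacagtCCGACGATC
pn7063: cgttctacggtCCGACGATC

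These 10 families were the marked members with the most reads. In all, the most common sequence of 17 of the 267 families held the 9 letters (6.37%). Over all 7785 families the number was 42 (0.539%), and among the 866 families without homology that had at least 40 reads in each library it was 4 (0.462%). The 17 marked families held 4840 of the 26572 blastema reads of the 267. By reads, the mark was also common elsewhere. The 4 marked families of the 866 held 184002 of their 1136720 blastema reads. The 42 of all families held 210160 of 1980648. In both sets 1 family, pn536, alone had 141352 of the marked reads. No difference in these shares was tested, since families are not replicates and many of them share runs of letters.

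Exact letters missed many close relatives. In the next set, capitals mark the letters that differ from the adapter stretch, and the families without the 9 letters are given. The first 8 have the most reads, and pn6954 and pn6852 were chosen after their letters were seen, for their altered 3′ part.
pn7064: CgttctacagtccgTcgatc
pn6503: CgttctacagtcTgacgatc
pn6496: CgttctacagtccCacgTtc
pn6038: CgttctacaTtccgacgTtc
pn6505: CgttctacaTtTcgacgatc
pn7084: CgttctacagtTcgacgTtc
pn7090: CgttctCcagtccgTcgatc
pn6272: agagAtctacagtccgacTatc
pn6954: cgagttctacaTtccgCcTGtc
pn6852: ccgagttctacaTtccgCTTGtc

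The number of edits (substitutions, insertions and deletions) between the adapter stretch and the best-matching part of each most common sequence separated the families into groups of unequal size. Of the 267, 51 families lay within 6 edits of the stretch, 3 lay at 7 edits and the other families at 8 to 12. This limit of 6 was set after the values were seen. At the low point between the groups, 3 families had 6 edits, 3 had 7 and 29 had 8. Families within 6 edits made up 19.1% of the blastema-only families, against 0.808% of the 866 families abundant in both libraries and 1.72% of all families. Chosen by the same limits, 4 of the 35 blastema-only families with a listed homology (11.4%) and 1 of the 103 families without homology seen in the control only (0.971%) lay as near. They are called near-adapter families below, and the other 216 are called the more distant families. Among these 216 the longest run of letters shared with the stretch was 6 bases, although some share letters with near-adapter families.

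**Figure D1:**
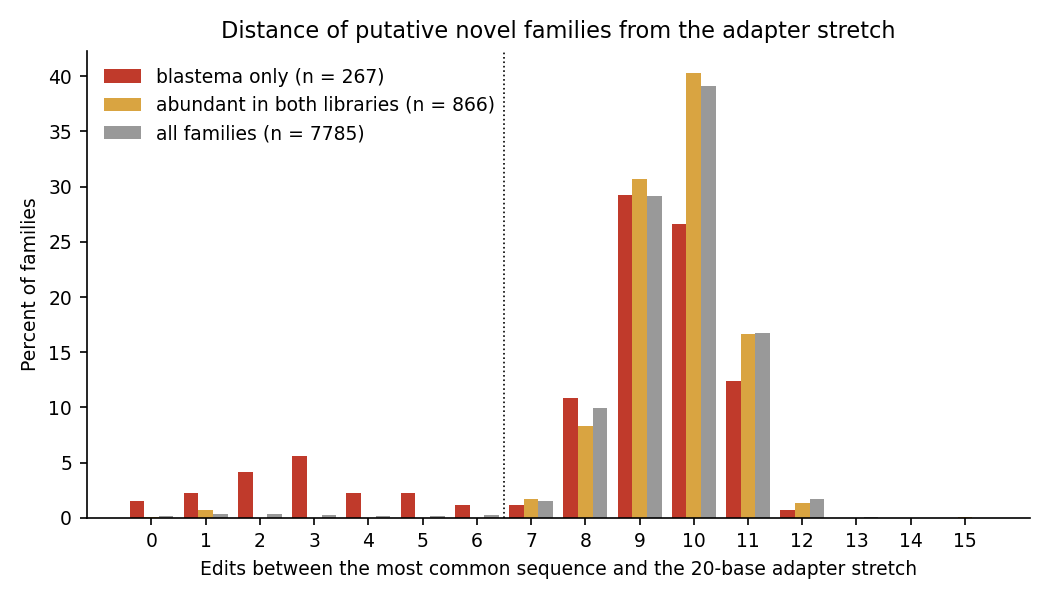
Edits between the 20-base adapter stretch and the most common sequence (x axis) against the percent of families (y axis), for the 267 blastema-only families, the 866 families without homology and with at least 40 reads in each library, and all 7785 families. The dotted line marks the limit of 6 edits, to the left of which lie 51 of the 267 families.

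By abundance, the near-adapter families led the blastema-only set. Of the 10 families with the most reads 8 were near-adapter families, and of the 20 with the most reads 15. Reads per family ranged from 40 to 1212 with a median of 66 over all 267. They ranged from 42 to 1212 with a median of 134 in the 51 near-adapter families, and from 40 to 334 with a median of 58 in the other 216. The near-adapter families thus held 10410 of the 26572 reads, or 39.2%. Families within 6 edits held 16.4% of the blastema reads of the 866 families abundant in both libraries. They held 18.4% in the 35 blastema-only families with a listed homology and 12.2% over all families. In the 866 and over all families, pn536 alone had 141352 of these reads. All 267 families together held 0.267% of the blastema reads and 1.34% of the reads in pn families.

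The most abundant family was Amex-miR-pn5883, whose 19 sequences had 1212 blastema reads and 0 control reads. Its share of the blastema library was 122 RPM, reads in 1000000 reads of the library (exact 95% interval 115 to 129). The most common sequence of pn5883, which holds the whole adapter stretch between an A at each end, had 730 of these reads, and the next had 116 and 78. Of the 19 sequences, 12 held the 9 letters. The second family, pn6071, had 708 blastema reads over 13 sequences (71.1 RPM, 66.0 to 76.6), and its most common sequence differs from the stretch by C5A, with positions counted from 1 at the 5′ end of the stretch. A pair of sequences with 320 and 254 reads held most of them.

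The third family, pn7064, had 632 blastema reads over 12 sequences (63.5 RPM, 58.6 to 68.7). It differs from the stretch by A1C and A15T, and none of its 12 sequences held the 9 letters. The next 4 were also near-adapter families, namely pn6506 with 550 reads, pn6503 with 508, pn6496 with 392 and pn6038 with 388. Only pn6038 among the unmarked families had a further sequence that held the 9 letters. The tenth, pn6505, had 306 reads. None of these families had a control read.

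**Figure D2:**
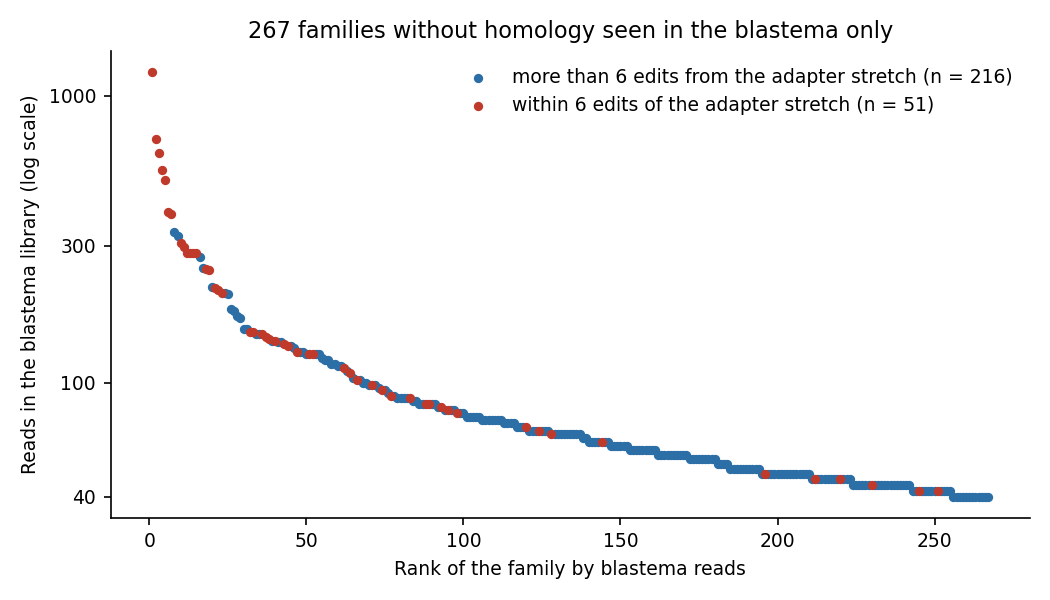
Blastema reads (y axis, log scale) of the 267 blastema-only families in order of abundance (x axis), 1 point per family, with the 51 near-adapter families in red and the other 216 in blue. The 7 most abundant families, from 1212 to 388 reads, are all near-adapter families.

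The rule required 0 control reads, so a ratio can only be bounded. With 3 reads put in place of the control count of 0, the bound on the ratio of blastema share to control share was calculated. It was 16.9 for a family with 40 reads, 27.9 at the median and 512 for pn5883. With each count divided by 2, because all counts were even, these bounds were 8.45, 13.9 and 256. For a family not chosen by its control count, a count of 0 would allow a control share of up to 2.38e-05%. These families were chosen for that 0, so the bounds describe the counts and may overstate the ratio. They also leave out relatives in other families. Sequences outside pn5883 that shared at least 16 bases in a row with its most common sequence had 1672 control reads and 190176 blastema reads. Scaling by TMM, which assumes that most features are unchanged, lowered the median bound from 27.9 to 6.34. As background, 5144 of the 6846 families with 10 or more reads (75.1%) took a blastema share 2-fold or more above the control share, and 2677 did so with TMM scaling. Of the 2554 families without homology and with at least 40 blastema reads, the 267 without a control read were 10.5%. Both percentages come from the contrast that chose the families, and nothing is read from them.

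The limit of 40 reads cut through a continuous range. At the limit, 12 families had 40 reads, among them pn5986, pn6221 and pn6480, and 13 had 42. Just below it, 17 families without homology or control reads had 38, among them pn5892, pn5949 and pn5963, and 26 had 36.

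Among themselves, the near-adapter families varied mostly by substitution, and most often at the first base of the stretch. Of the 51, 4 held the whole stretch, 40 differed from it by 1 to 6 substitutions and 7 needed an insertion or a deletion. The 40 families carried 116 substitutions in all. The most frequent was A1C, in 22 families with 5308 reads. It was followed by G10T in 11 families, A18T in 10, G17T in 10 and T3A in 7. By kind, 31 of the 116 were A-to-C and 28 were G-to-T, out of 12 possible kinds. None of these 40 families differed at position 6 or 8, and the 7 with an insertion or a deletion were not counted by position.

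**Figure D3:**
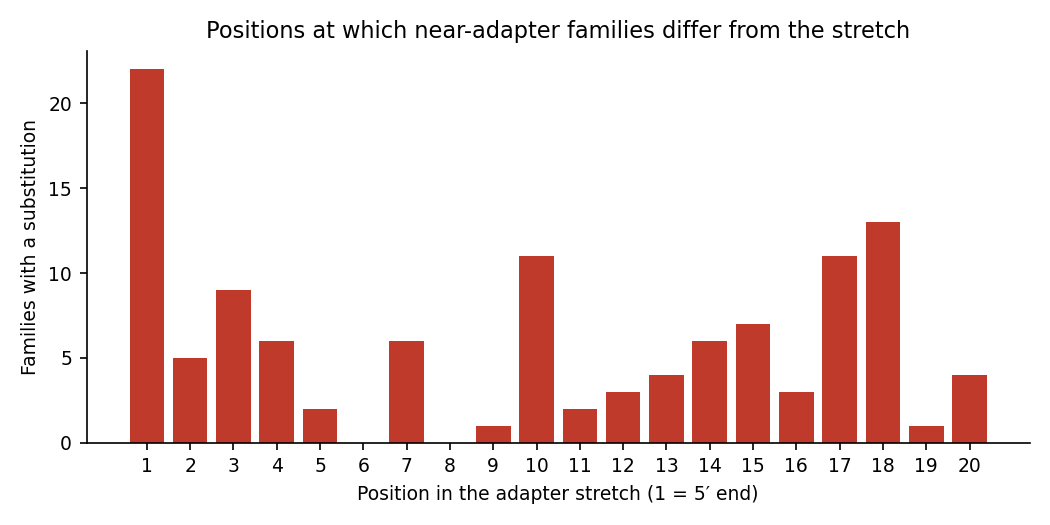
Number of near-adapter families (y axis) with a substitution at each position of the 20-base adapter stretch (x axis, 1 at the 5′ end), over the 40 families that differ from it by substitutions only. Position 1 was changed in 22 families, and positions 6 and 8 in none.

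Many of the same changes were found outside the 267 families. Of the 60 possible single substitutions of the 20-base stretch, 58 were present among the unmapped sequences of that length, 2 in the 267 families (C5A in pn6071 and A15G in pn6306) and 56 elsewhere. The sequence with A1C alone, a member of pn536, had 2 control reads and 39416 blastema reads. The sequence with A7C alone had 0 and 2202, and that with G10T alone had 10 and 1168. Over the whole table, 134 families lay within 6 edits of the stretch, with 3670 control reads (0.0291% of the library) and 241106 blastema reads (2.42%). Of these 134, 68 had no control read, a number that has no background here because it was not counted over all families. The adapter stretch and its relatives were thus present in the control library at low counts.

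The families had been built by the authors with a Levenshtein distance of 4, a count of edits. Measured over the whole length of both sequences, 36 of the 51 near-adapter families lay within 4 edits of the adapter stretch, and they are listed apart from pn536, which holds 174 sequences. Families of this group also overlapped one another. Most common sequences that shared at least 14 bases in a row made 157 pairs among the 267 families, 126 of them between near-adapter families, 29 between more distant families and 2 between the groups, where pn6861 and pn6863 were linked with the near-adapter family pn6853. The largest groups of linked families had 18 families with 4874 reads and 10 families with 1172 reads, and all of these were near-adapter families. Near-adapter families were set apart by their closeness to 1 sequence. Overlaps and shared seeds among them therefore follow in part from that choice. The largest group of more distant families held pn6050, pn6235, pn6722 and pn6940, with 386 reads. No pair shared 14 bases with the opposite strand. Of the 267 families, 86 shared letters with another in this way, 39 near-adapter and 47 more distant. Such pairs were not counted among the other families of the table, so these numbers have no background. Whether linked families come from the same RNA was not tested.

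Seeds repeated in the same way. The 267 most common sequences had 227 distinct stretches at bases 2 to 8, and 15 of these were shared by more than 1 family. The most frequent was GTTCTAC, in 17 families with 3910 reads, all near-adapter. CGAGTTC followed in 5 families, 3 of them near-adapter, and GTTCTCC was in 4, all near-adapter. Other stretches were shared by more distant families only, such as GGGTAGC in 3 families. Among all 7785 families, these stood at bases 2 to 8 in 0.385%, 0.180%, 0.103% and 0.154%, in the order named. Shared stretches were not counted among all families, so the 227 and the 15 have no background. The deposited sequences need not begin at the 5′ end of an RNA, as the let-7 sequence of pn408 lacks the first T of let-7, so these bases are a description of letters only.

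A smaller group carried other kit letters. The 7 letters TCTGCTT, which textbooks give near the end of the 3′ adapter of the same kit, were looked for after the sequences had been seen. They were found in the most common sequence of 6 of the 267 families, with 446 blastema reads together, and in 10 of all 7785 families (0.128%). All 6 lay 7 to 9 edits from the 5′ adapter stretch. They are shown with these letters in capitals. The 5′ parts of pn6103, pn6435, pn6189 and pn6275 resemble one another, and those of pn6861 and pn6863 resemble pn6852 above.
pn6861: ccgagttctgcctTCTGCTTgtc
pn6103: acagatctagagtTCTGCTTtc
pn6435: agggatctcgagtTCTGCTTtc
pn6863: ccgagttctgcctTCTGCTTgac
pn6189: aggtatctcgagtTCTGCTTtc
pn6275: agagatctcgagtTCTGCTTtc

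pn6861 was the most abundant of these, with 122 blastema reads over 9 sequences. None of the 866 families abundant in both libraries held the 7 letters. How far adapter bases account for the presence of any family in the blastema library was not tested.

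The 216 more distant families held 16162 blastema reads over 843 sequences. The most abundant was pn6178, with 334 reads over 14 sequences (33.6 RPM, 30.1 to 37.4). Its reads were spread widely, with 50, 40 and 38 in the leading sequences, and the most common held 15.0% of the family. pn5880 had 324 reads over 6 sequences (32.6 RPM, 29.1 to 36.3), of which the most common held 158. For the longer sequences the leading families were pn5890, of 22 bases and with 274 reads, and pn6147, of 23 bases and with 216 reads.

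Close relatives of some of these families were present in the control. Unmapped sequences outside the family that shared at least 16 bases in a row with its most common sequence were counted for each family. For 66 of the 216 families (30.6%) such relatives had control reads, and for 16 families they had 20 or more. The relatives of pn6178 had 76 control reads and 1708 blastema reads. Those of pn6859, which had 48 blastema reads itself, had 668 control reads and 152 blastema reads. By contrast, pn6147 had no relative, and pn5880 and pn5890 each had 1, with 6 blastema reads and 0 control reads. Among the near-adapter families, 42 of 51 had relatives with control reads. Relatives were not counted for the other families of the table, so these shares have no background.

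The groups differed in length. In the near-adapter families 29 of 51 most common sequences had 20 bases (56.9%), the length of the stretch, and 2 had 21. The most common sequences of all families had 20 to 23 bases, so 20 was the shortest length among them. In the other 216, lengths of 20, 21, 22 and 23 bases were found in 58, 63, 52 and 43 families. The 866 families abundant in both libraries had 21 bases in 36.4%, and all families in 35.3%, against 29.2% of the 216. Over all 267, 24.3% had 22 bases, the usual length of a microRNA. This was close to the 23.2% of all families and the 25.5% of the 866. As for the seeds, a deposited sequence need not begin at the 5′ end of an RNA, so its length need not be that of the RNA.

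**Figure D4:**
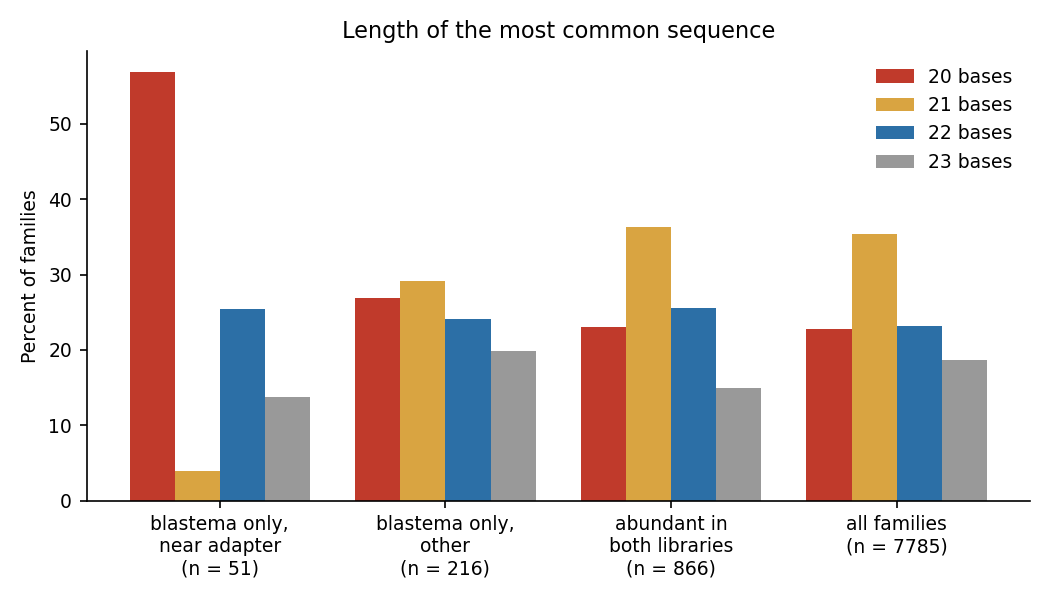
Percent of families (y axis) whose most common sequence had 20, 21, 22 or 23 bases, for the 51 near-adapter and 216 other blastema-only families, the 866 families abundant in both libraries and all 7785 families. The near-adapter families stand out with 56.9% at 20 bases.

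A T at the 5′ end was rare. Of the 267 most common sequences 7 began with T (2.62%), 100 with C, 96 with A and 64 with G. The share beginning with T was 5.05% over all families and 4.39% in the 866 abundant in both, so that all of these shares were low. The same limit on the first base holds here as for the seeds. Near-adapter families began with C in 33 of 51 cases and with A in 17. The median GC content was 52.4% over the 267, 50.0% in the near-adapter families and 52.2% over all families.

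Family size ranged from 1 to 19 sequences with a median of 4, and 5 families had 1 sequence only (pn6353, pn6815, pn6926, pn7067 and pn7631). The near-adapter families were larger, with a median of 7 (3 to 19) against 4 (1 to 14) in the other 216. pn5883 was also the family with the most sequences. The 866 families abundant in both libraries had a median of 8 and up to 195 sequences, with a median of 375 blastema reads. Of all families, many of them below the limit of 40 reads, 28.0% had 1 sequence. The most common sequence held a median of 43.9% of the reads of a family, with a range of 13.3 to 100%.

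The sequences within a family differed in kind between the groups. In the near-adapter families, 266 of the 339 further sequences (78.5%) had the length of the most common one and 1 to 3 substitutions, and 15 were longer or shorter at the 3′ or 5′ end only (5 and 10). In the other 216 families, 117 of 627 further sequences (18.7%) had 1 to 3 substitutions, while 205 (32.7%) differed at the 3′ end only and 134 (21.4%) at the 5′ end only. Over all families these shares were 49.6%, 15.0% and 6.20%. The 216 families thus varied mostly at their ends, and at the 5′ end more often than the families of the table as a whole, as counts and without a test. The shares over all families pool every further sequence, so large families of up to 195 sequences weigh most. Family size, read depth and length were not matched. The most common sequence had 20 bases, the shortest length, in 56.9% of the near-adapter families and 26.9% of the 216. That length leaves less room for shorter ends.

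**Figure D5:**
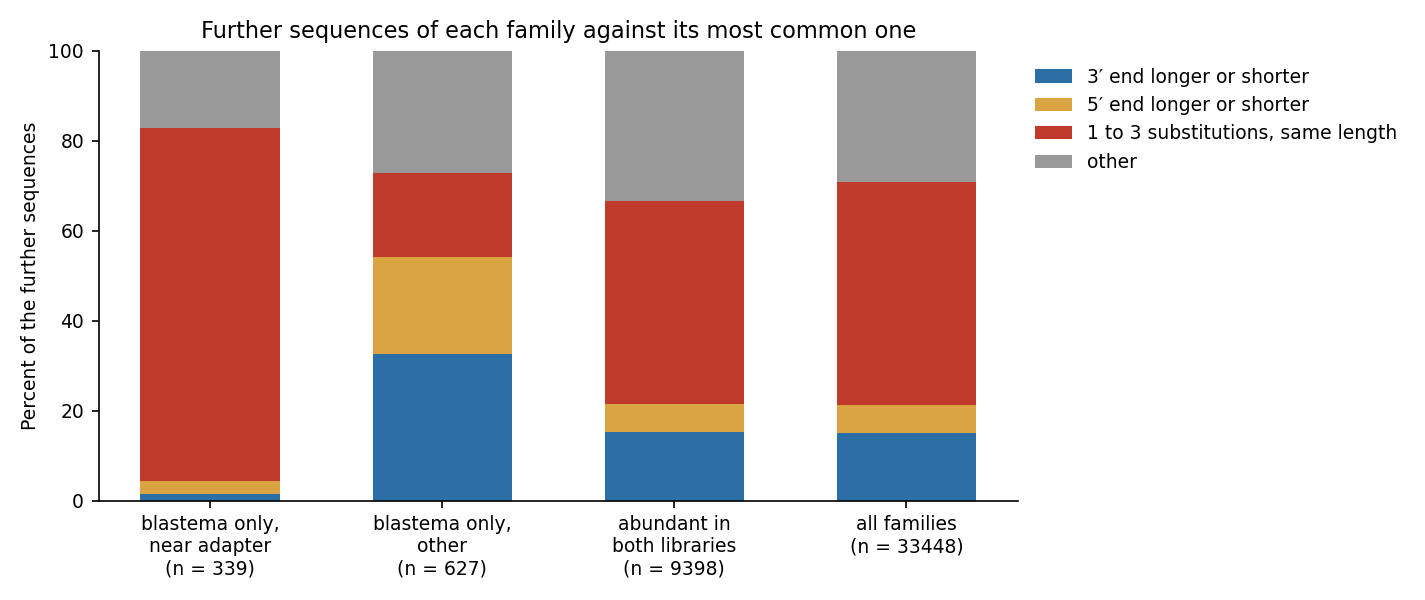
Percent of the further sequences of a family (y axis) that differ from its most common sequence at the 3′ end only, at the 5′ end only, by 1 to 3 substitutions at the same length, or otherwise, for the 51 near-adapter and 216 other blastema-only families, the 866 families abundant in both libraries and all families. Substitutions made up 78.5% in the near-adapter families and 18.7% in the other 216.

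Some of the 216 families had letters that resemble let-7, a conserved microRNA family that promotes differentiation, although the table lists no homology for them. They were looked for after the sequences had been seen. The comparison was with the most abundant unmapped sequence that starts with GAGGTAGTA, the letters of let-7 after its first T, which had 12084 control reads and 19800 blastema reads and belongs to pn408, a family with a listed let-7 homology. Differences were counted position by position from the 5′ end, and 5 of the 267 families, with 316 blastema reads, differed at no more than 6 positions (1.87%). The number was 65 of the 6197 families without a listed homology (1.05%) and 326 of all 7785 families (4.19%), many of which have one listed. They are shown with the differing letters in capitals.
pn408: gaggtagtagtttgtgtagtta
pn7619: gGggtaCtagAttCtgtagGta
pn7336: gaggtagCagAttgAAGagGt
pn7621: gGggtagtagAttgAAGagGt
pn7324: gaggGagCagAttgCAtagAt
pn7622: gGggtagtagGCtgtAGagGt

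The largest of these was pn7336, whose 10 sequences had 128 blastema reads and 0 control reads. All 5 differed from the pn408 sequence at position 11 (T11A or T11G). No other let-7 sequence was compared, so this is a difference from the pn408 sequence and not from let-7 as a family.

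Letters of transfer RNA were searched in the same way. The 9-letter motif GTTCGANTC, from the T arm that serves as the B box of transfer RNA genes, was found on the strand given in 1 of the 267 most common sequences, that of pn5956 with 60 blastema reads, and in 0.321% of all families. An end in CCA, the letters added to mature transfer RNAs, was found in 10 of the 267 (3.75%), all of them more distant families, in 3.46% of the 866 families abundant in both libraries and in 2.03% of all families. The most abundant of these were pn6952 with 140 blastema reads, pn6151 with 76 and pn5905 with 74.

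The source of the 216 families is not known from these files, because no axolotl genome and no set of other RNAs was compared with them. Whether any of them come from ribosomal or transfer RNA, or from other organisms, was not tested.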

How the data were processed

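Small RNA of 2 pooled tail libraries was sequenced, 1 per condition. The authors trimmed the reads with ShortRead, mapped them to mirBase with Bowtie (1.1.2 in the submitters' processing notes) allowing mismatches, and deposited counts of reads per mirBase entry and per unmapped sequence, without normalization. The authors joined unmapped sequences within a Levenshtein distance of 4 into families. The deposited family counts equalled the sums over member sequences for all 7785 families. An entry of NA was read as no listed homology. The authors also deposited normalized signal values and log2 values with log2 fold changes, which were not used.

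The families and all lists and motifs were chosen with earlier results of these data known. Shares are over known plus unmapped reads. A control count of 0 was replaced by 3 reads for a lower bound, and ratios for the 2-fold background had 0.5 read added. Intervals of shares of reads are exact Clopper-Pearson, at 95%. No test of the condition was possible with 1 library each. Named are the 10 families with the most reads, the 10 marked ones with the most reads, the family with the most sequences, the leading unmarked family of each length, 3 on each side of the limit of 40, the largest overlapping or seed groups, unmarked families with the motif in another sequence, and up to 3 each with the B box letters or a CCA end; other names were chosen after their values were seen. The distance search and the 2-fold count were tested on simulated data, and the motif searches were not.

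edlib 1.3.9.post1, networkx 3.6.1, pandas 2.3.3, SciPy 1.17.1, NumPy 2.4.6 and Matplotlib 3.10.9 were run in Python 3.11.15, with R 4.3.3, edgeR 4.0.16 (TMM) and DESeq2 1.42.0 (size factors) for alternative scalings only.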

Additional observations from a re-analysis of the deposited data

How the results depend on the processing

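Of 35 alternatives to 10 results, 19 left the value within its counting interval, or a count within 1.5 times, and 16 did not. The number of families was 589 with a minimum of 20 blastema reads, 97 with 80, and 406 with up to 2 control reads allowed. Without the near-adapter families, an alternative chosen after seeing the data, the reads held fell to 16162 and the overlapping pairs to 29. Over all 267 families, 74 pairs shared at least 16 bases. The number of adapter-marked families was 34 with 1 mismatch allowed and, at limits chosen after seeing the data, 42, 51 and 54 within 4, 6 and 7 edits of the stretch. The median lower bound of the fold was 18.1 with the library depths given in the study's methods, 6.34 with TMM, 6.60 with DESeq2 size factors and 13.9 with counts divided by 2. The number of families at least 2-fold higher was 2677 with TMM, against 5144, both of 6846 families. Among families with at least 100 reads it was 1859, a count over a smaller set and so not comparable with 5144. No paired analysis was possible because each condition had 1 library. Counting error limits the smallest families, and no alternative can stand in for replicate libraries.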

Other observations

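Unmapped sequences that the authors placed in no family also held relatives of the adapter stretch. Of 18578 such sequences 601 lay within 6 edits of it, with 284 control reads and 3322 blastema reads together. Of these 601, 522 had no control read, and of all 18578, 8796 had none. On the log2 scale the ratio of blastema over control was 3.89 for these 601 sequences and 1.11 for all 18578. The authors joined only unmapped sequences above a minimum of reads in either library. Sequences in no family therefore had low counts, and both ratios rest on a set cut by that minimum.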
